A study of Mus musculus with 8 samples.

Results

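Tags of RNA crosslinked to Ptbp2 came from both DNA strands in 1619 windows of 10 kb, out of 226811 windows of chromosomes 1 to 19 that held any tag. Windows were chosen by their tag counts: a window was taken where it held 10 or more tags on the plus strand and 10 or more on the minus strand, counted by tag midpoint over all libraries. These windows are called both-strand windows here. They made up 4.28% of the 37832 windows with 20 or more tags and held 68248 tags, 2.20% of the 3098854 tags in the series. Cortex came from CD1 embryos at embryonic day 18.5 and wild type, with 4 libraries from each of 2 brains, and tags of another antibody, genotype or of input RNA were not used here. Positions are given in build mm9 and counted from 1.

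Ptbp2 is the neuron-enriched polypyrimidine tract binding protein, a splicing regulator that binds pyrimidine-rich stretches of RNA, many of them in introns. HITS-CLIP joins the protein to RNA with ultraviolet light and sequences the fragments it held, so the strand of a tag shows which DNA strand has the sequence of its RNA. Tags on both strands of a short stretch can come from genes that overlap, from genes that run towards each other and end side by side, from genes that start back to back, or from a transcript read across a gene on the opposite strand. No gene annotation of build mm9 was used, so windows are named by position and no gene is assigned.

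The tag counts on the strands chose these windows and are given as a description. The emptier strand held a median of 12 tags and the fuller a median of 20. The emptier strand's share of a window's tags had a median of 39.4%, with quartiles of 30.3% and 45.5%. In 800 windows it was 40% or more, and in 18 it was under 10%. The plus strand was the fuller in 817 windows, the minus strand in 709, and 93 were equal. On the emptier strand 445 windows held exactly 10 tags, while 571 windows were left out with 9 tags there and 10 or more on the other. The emptier strand drew tags from both brains in 1608 of the 1619 windows and from a median of 6 of 8 libraries, and the other 11 had such tags in brain 1 alone. The share of tag-rich windows that were both-strand ran from 3.35% on chromosome 8 to 5.08% on chromosome 7. By total tags it was 3.61% of windows with 20 to 29 tags, 5.36% with 30 to 49 and 4.50% with 50 to 99. It was 2.87% with 100 to 199 tags and 2.37%, or 8 of 337 windows, with 200 or more.

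Whether the strands overlapped, met or diverged was read from positions inside the window, which the choice of windows did not use. Each strand was given the range from the 10th to the 90th percentile of its tag midpoints. The ranges shared at least 1 position in 943 windows (58.2%), called overlapping. In 369 windows (22.8%) the plus range lay wholly at the lower coordinates, so that RNA of both strands ran inward and the strands met. In 307 windows (18.96%) the minus range lay at the lower coordinates, so that RNA ran outward and the strands diverged. The gap between the ranges had a median of 1762 nt where strands met and 2229 nt where they diverged. The split depends on the range taken for a strand: with full ranges 1319 windows overlapped, and with the 25th to 75th percentiles 518 did. Meeting windows outnumbered diverging ones under both, with 164 against 136 and 596 against 505.

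**Figure D1:**
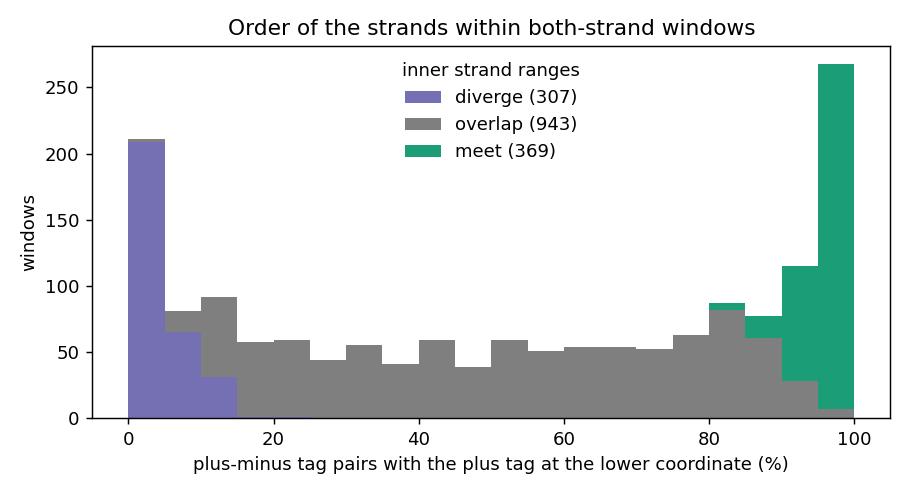
Histogram of both-strand windows by the share of plus-minus tag pairs in which the plus tag lay at the lower coordinate (x axis, percent; y axis, number of windows), stacked by class. The 369 meeting windows lie at the right end, the 307 diverging windows at the left end, and the 943 overlapping windows are spread between them.

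The order of the strands recurred between the brains. Each brain alone gave 5 or more tags on each strand in 701 windows, and 504 of these (71.9%) took the same class in both. None of the 701 met in one brain and diverged in the other. Of these, 125 of the 174 that met in brain 1 (71.8%), 103 of the 134 that diverged (76.9%) and 276 of the 393 that overlapped (70.2%) kept their class in brain 2. The shares of pairs that follow also take windows with as few as 1 tag on each strand in brain 2, where 0% or 100% is easily reached. Of windows that met in brain 1, the median share of pairs with the plus tag first was 100% in brain 2 (quartiles 88.9% and 100%, 345 windows). Of windows that diverged in brain 1 it was 0% in brain 2 (quartiles 0% and 12.8%, 295 windows). Windows that overlapped in brain 1 had a median of 54.5% in brain 2.

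Most overlaps were of a strand lying inside the range of the other. In 592 of the 943 overlapping windows the range of one strand was nested in the other's, in 196 the ranges overlapped in part with the plus range first, and in 155 with the minus range first. The inner range of a nested window had a median width of 725 nt, and in 191 windows (32.3%) it was 100 nt or less. The minus strand was the one inside in 367 nested windows and the plus strand in 225. The inner strand was the emptier one in 341 of the 592.

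Overlap at the scale of single bases was rare. Of the tags in both-strand windows, 3.34% overlapped a tag of the opposite strand by 1 nt or more, 5.50% lay within 50 nt of one and 13.8% within 200 nt. At least 1 such overlap was present in 268 windows (16.6%), and in 24 windows (1.48%) 3 or more tags of each strand took part. Of these 24, 23 were of the overlapping class. The pooled share counts every tag of a stack that a single opposite tag touches, as in the window on chromosome 5 at 19410001 described below. Averaged over the 4 libraries of each brain, the share (± SD) was 3.03 ± 0.26% for brain 1 and 3.87 ± 0.34% for brain 2. All libraries of brain 2 lay above those of brain 1. The exact two-sided permutation test gave p = 0.0286, the smallest that 4 against 4 libraries allow, and an adjusted p of 0.0857 over 6 values compared between the brains.

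The windows on either side, outside the stretch that the choice used, differed between meeting and diverging windows. A neighbouring window was said to be led by the strand with more of its tags, where it had 10 or more tags and was not itself a both-strand window. The window before a meeting one was led by the plus strand in 134 of 204 cases (65.7%), and the window after it by the minus strand in 128 of 213 (60.1%). Before a diverging window the minus strand led in 114 of 183 cases (62.3%), and after it the plus strand led in 108 of 178 (60.7%). At a distance of 20 kb the leads beside meeting and diverging windows had mostly gone: the plus strand led 106 of 194 windows before a meeting one (54.6%) and 71 of 165 before a diverging one (43.0%). Over libraries, the tags in the window before a meeting one were 63.5 ± 2.06% plus, against 37.5 ± 2.01% before a diverging one (SD, n = 8 libraries, higher in 8 of 8). After the window they were 38.2 ± 1.66% and 59.0 ± 2.35%, lower in 8 of 8. Each difference had p = 0.00781 in an exact sign permutation over the libraries, the smallest 8 libraries allow (adjusted p = 0.00868 over 10 paired values). The libraries read the same loci and come from 2 animals, so these p-values cover only the spread between libraries. Their titles also carry a letter, not explained in the labels, that sets libraries 1 and 2 of a brain apart from 3 and 4. Averaged by brain and letter, this gives 4 units, for which the smallest p of a sign permutation is 0.125. The 9 paired differences that passed over the libraries kept their direction in 4 of 4 units, and none could pass a test over so few.

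**Figure D2:**
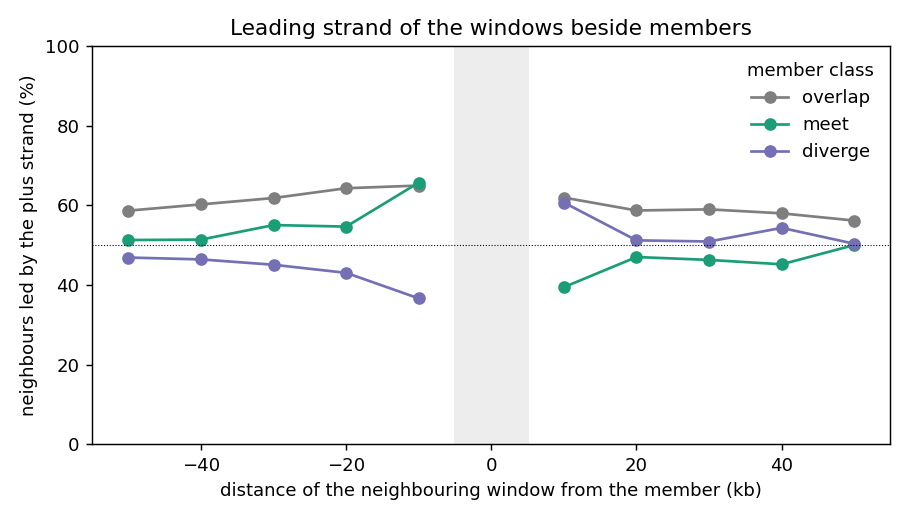
Share of neighbouring windows led by the plus strand (y axis, percent) by distance from the both-strand window (x axis, kb; grey band, the window itself), for windows that overlapped, met or diverged; the dotted line marks 50%. At 10 kb before the window 65.7% were plus-led where strands met and 36.6% where they diverged, and the order is turned at 10 kb after it. Beside overlapping windows 64.9% were plus-led at 10 kb before and 61.9% at 10 kb after.

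A lasting change of strand was nonetheless the less common setting. Both neighbours had 10 or more tags and were not both-strand themselves for 730 windows. In 91 of them the plus strand led before and the minus strand after, in 68 the reverse, and in 560 (76.7%) one strand led on both sides. Other windows with 20 or more tags had one strand on both sides in 92.6% of 20982 cases, and a change in 6.76%, against 21.8% for both-strand windows. Counted in single libraries, with 3 or more tags in each neighbour, the neighbours were led by different strands in 15.3 ± 2.89% of both-strand windows and 4.21 ± 0.93% of other windows (SD, n = 8, higher in 8 of 8, exact sign permutation p = 0.00781, adjusted p = 0.00868). Where strands met, a change from plus to minus was seen in 34 of 136 windows and the reverse in 1. Where they diverged, a change from minus to plus was seen in 26 of 120 and the reverse in 6. Among nested windows, 265 of 309 (85.8%) had one strand on both sides.

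In the 560 windows set between neighbours of one strand, the strand opposite to the neighbours was mostly a narrow stack. A strand is called a stack here where 50% or more of its tags in the window cover a single base. Tags that repeat the position of another tag of the same library are included, and stacks were not counted again without them. With plus-led neighbours and plus the fuller strand, the minus strand was a stack in 174 of 265 windows (65.7%) and the plus strand in 15 (5.66%). Between minus-led neighbours with minus the fuller strand, the plus strand was a stack in 97 of 141 windows (68.8%) and the minus strand in 22 (15.6%). The strands were equal in 12 windows between plus-led and 6 between minus-led neighbours, and in the rest the opposite strand was the fuller one. There, between plus-led neighbours, the minus strand was a stack in 53 of 87 windows (60.9%) and the emptier plus strand in 8 (9.20%). Between minus-led neighbours, the fuller plus strand was a stack in 35 of 49 (71.4%) and the emptier minus strand in 7 (14.3%).

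The stacks recurred at the same base in the other brain. The most covered base of each strand was taken from one brain, and the share of tags covering it was counted in each library of the other. On the strand opposite to the neighbours the shares were 55.3, 56.2, 55.8 and 55.8% in libraries 1 to 4 of brain 1 and 60.4, 59.2, 62.7 and 66.0% in those of brain 2. On the strand of the neighbours they were 13.96, 13.9, 14.9 and 14.5% in brain 1 and 18.3, 18.4, 17.96 and 16.4% in brain 2. The difference was 42.9 ± 2.99 percentage points (SD, n = 8, higher in 8 of 8, exact sign permutation p = 0.00781, adjusted p = 0.00868). The opposite strand had to bring 10 tags for a window to be listed, and the part of this rule in the difference was not tested. Over all both-strand windows, both strands were stacks in 177, one was in 930 and neither was in 512, of which 333 overlapped.

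Among these 560 windows, both neighbours were led by the plus strand in 364 and by the minus strand in 196, while among other windows with 20 or more tags the counts were 8845 and 10578. Per library, windows beside both-strand windows had 58.1 ± 1.21% of their tags on the plus strand, and other windows 41.8 ± 0.80% (SD, n = 8, higher in 8 of 8, exact sign permutation p = 0.00781, adjusted p = 0.00868). Of windows with 20 or more tags, 817 of 16137 led by the plus strand (5.06%) were both-strand, against 709 of 21602 led by the minus strand (3.28%). The emptier strand was also compared outside them. In windows that were not both-strand, tags on the emptier strand were 4.94 ± 0.97% where plus led and 3.63 ± 0.55% where minus led (SD, n = 8, higher in 8 of 8, exact sign permutation p = 0.00781, adjusted p = 0.00868). The rule for both-strand windows caps the emptier strand of these windows, so its share depends on how many tags a window holds. Windows led by plus and by minus were not matched for total tags. The difference is therefore given as a description, and whether the lean of both-strand windows holds outside them was not tested.

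The fullest both-strand window by its emptier strand lay on chromosome 6 from 47730001 to 47740000 and held a pair of stacks that met at a distance. Its plus strand had 173, 132, 146 and 151 tags in libraries 1 to 4 of brain 1 and 77, 101, 111 and 82 in those of brain 2. Its minus strand had 47, 46, 45 and 38 tags in brain 1 and 16, 29, 31 and 18 in brain 2. In CPM, the rate of tags scaled to the library's total, the plus strand held 311 ± 15.5 for brain 1 and 319.9 ± 30.3 for brain 2, and the minus strand 91.3 ± 9.31 and 79.4 ± 14.0 (SD, n = 4). The brains overlapped on both strands. Of the 973 plus tags 947 covered one base, and of the 270 minus tags 164 did. Tags repeating the start and end of another tag of the same library made up 80.7% of the plus and 53.0% of the minus tags. The inner ranges, from 47731690 to 47731696 on plus and from 47738092 to 47738165 on minus, lay 6396 nt apart. The windows before and after it were thinly tagged, with 17 tags (6 plus, 11 minus) and 9 tags (all minus).

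**Figure D3:**
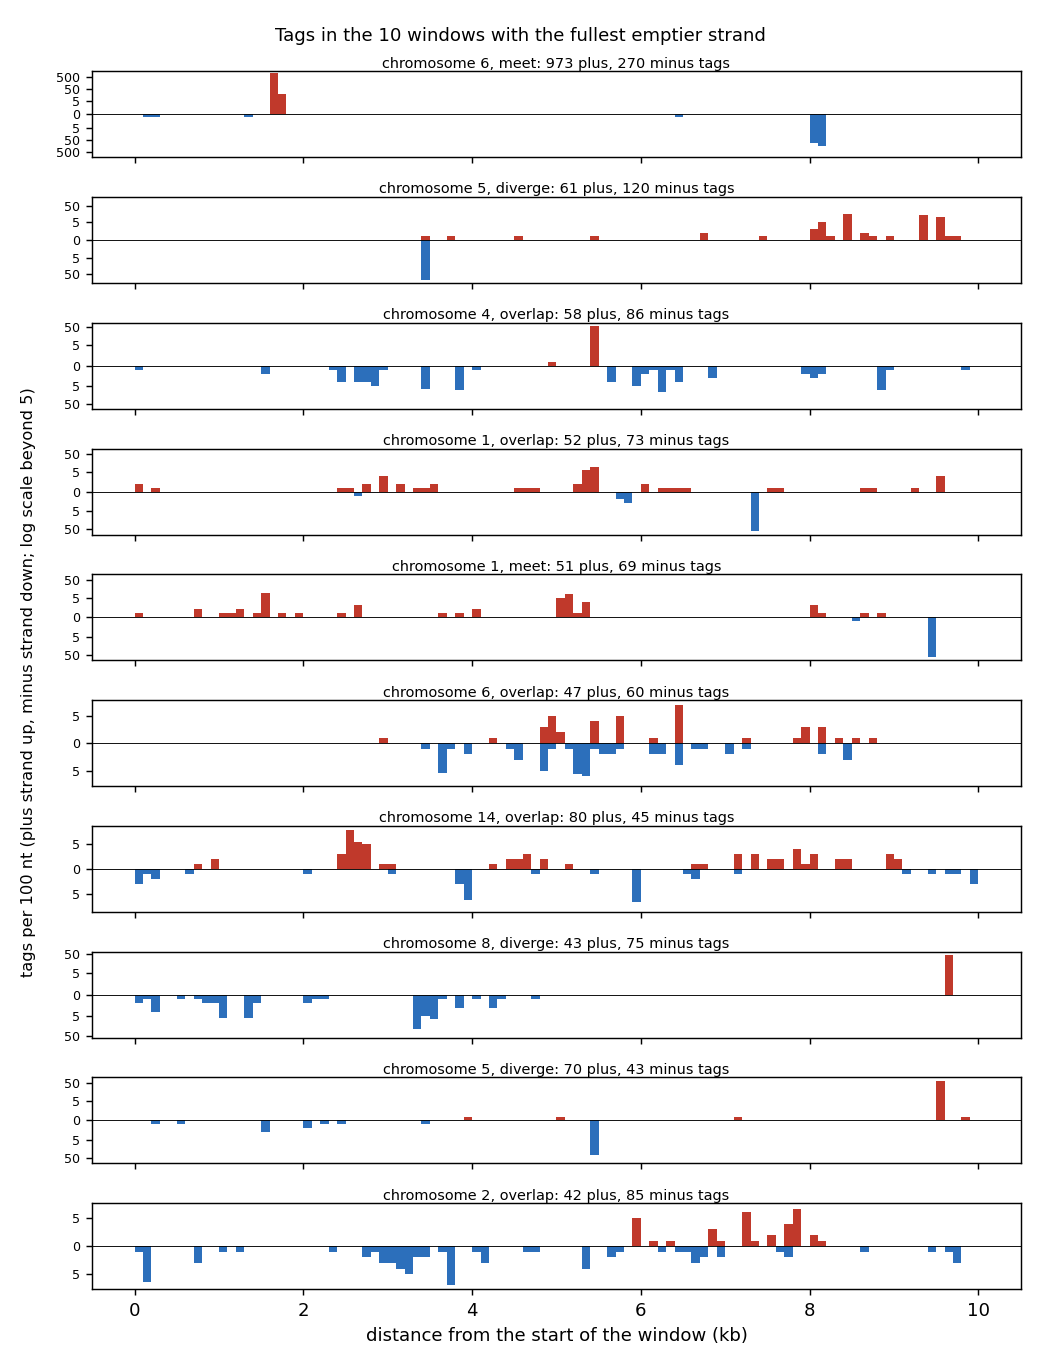
Tags per 100 nt (y axis, plus strand up and minus strand down, log scale beyond 5) by distance from the window start (x axis, kb) in the 10 windows with the most tags on the emptier strand, all 8 libraries pooled; each panel has its own y range. A single tall bar of one strand stands among scattered tags of the other in the window on chromosome 4 and the first on chromosome 1. In the windows on chromosomes 5 (minus stack) and 8 and the second on chromosome 1 it lies outside the inner range of the other strand. The second window on chromosome 6 and those on chromosomes 14 and 2 have scattered tags on both strands.

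In several of the fullest windows a stack faced scattered tags of the other strand. On chromosome 4, from 76670001 to 76680000, 57 of 58 plus tags covered one base, inside a minus range from 76672606 to 76678833 with 86 tags. The windows before and after held 51 and 60 minus tags against 1 and 0 plus tags. The stack was seen in all libraries, with 5 to 9 plus tags in those of brain 1 and 3 to 13 in those of brain 2. On chromosome 1, from 32410001 to 32420000, the roles were turned: 67 of 73 minus tags covered one base, and the inner range of the 52 plus tags ran from 32412769 to 32418758. Its neighbours were plus-led, with 28 and 18 plus tags against 0 and 1 minus. Also on chromosome 1, from 81110001 to 81120000, 68 of 69 minus tags covered one base beyond 51 scattered plus tags, and the window met by its ranges although both neighbours were plus-led (48 and 15 plus tags against 4 and 1 minus). Of the tags on these stacked strands, 72.4% (76670001), 64.4% (32410001) and 58.0% (81110001) repeated the position of another tag of the same library.

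On chromosome 8, from 33680001 to 33690000, all 43 plus tags covered one base, 5782 nt beyond the minus range. The 75 minus tags continued the 68 minus tags of the window before. On chromosome 5, from 115930001 to 115940000, both strands were stacks, with 66 of 70 plus and 33 of 43 minus tags over one base and 4066 nt between the ranges. On chromosome 16, from 35980001 to 35990000, 40 of 42 plus tags covered one base, 38 nt by tag midpoints before the minus range, and 31 of 65 minus tags covered one base. In it 40 plus tags overlapped 1 minus tag, and 74 of its 107 tags lay within 50 nt of a tag of the other strand. It met in brain 1 and overlapped in brain 2. Tags repeating the position of another tag of the same library made up 62.8% of the plus tags on chromosome 8. They made up 47.1% of plus and 18.6% of minus tags on chromosome 5, and 35.7% and 38.5% on chromosome 16.

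Other windows had scattered tags on both strands. On chromosome 6, from 30750001 to 30760000, the inner range of the 47 plus tags ran from 30754924 to 30758126 and that of the 60 minus tags from 30753680 to 30757071. No base was covered by more than 14 plus or 6 minus tags, and 29 plus and 12 minus tags overlapped one another. Library 4 of brain 1 gave 18 of the 47 plus tags, and the other libraries 2 to 6 each. The window after it was minus-led, with 33 minus tags and 1 plus tag. On chromosome 14, from 55700001 to 55710000, 80 plus and 45 minus tags were nested over 5869 nt, and the window before it was both-strand as well. On chromosome 2, from 157380001 to 157390000, the inner range of 42 plus tags overlapped the last part of that of 85 minus tags. Its neighbours held 38 and 31 minus tags and 0 and 2 plus.

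A full change of strand was seen in the window from 35280001 to 35290000 on chromosome 17. Its 39 plus tags lay between 35280513 and 35283468 and its 56 minus tags between 35286291 and 35288367 by their inner ranges, and no plus tag lay beyond a minus tag. The window before held 30 plus tags and 0 minus, and the window after 33 minus tags and 1 plus. No base was covered by more than 12 plus or 10 minus tags. Each library had tags on both strands, 5 to 7 plus and 7 to 12 minus in brain 1 and 2 to 7 plus and 3 to 8 minus in brain 2. The reverse change was seen on chromosome 2, from 115890001 to 115900000. Its 34 minus tags followed 226 minus tags in the window before, and its 105 plus tags went on into 22 plus tags in the window after. The minus strand was absent from 1 library, the third of brain 2. In the window from 8320001 to 8330000 on chromosome 13 the ranges met with 75 plus and 37 minus tags, but both neighbours were plus-led, and 27 of the 37 minus tags covered one base. On chromosome 14, from 124990001 to 125000000, 35 of 42 plus tags covered one base beside 44 minus tags, and the window after it was both-strand too, with 11 plus and 121 minus tags.

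Of the both-strand windows, 1525 had no neighbour that was both-strand as well, and 94 lay in 44 runs of 2 or more. In 853 windows (52.7%) a neighbour held 5 or more tags on the strand that was the emptier in the window. The median over 3138 neighbours was 3 tags. Windows whose neighbours were led by that strand are among them, and no such share was taken for other windows. The longest run, chosen for description after its values were seen, was of 5 windows on chromosome 7 from 66500001 to 66550000, with 165 plus and 219 minus tags. All 5 were of the overlapping class. Their plus tags numbered 32, 47, 23, 33 and 30 and their minus tags 27, 15, 16, 127 and 34, so that the leading strand changed along the run. In the fourth, the minus strand held 23 to 28 tags in each library of brain 1 and 4 to 11 in each of brain 2, or 51.6 ± 7.37 and 23.7 ± 8.62 CPM (SD, n = 4). The brains did not overlap, but the difference did not pass in limma voom (log2 change -0.82 ± 0.41, adjusted p = 0.482). The other runs of 3 or more were also on chromosome 7, 4 windows from 131410001 to 131450000 with 95 plus and 65 minus tags, and 3 from 109140001 to 109170000 with 56 and 40.

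The brains were compared strand by strand. Of 3672 strand windows of chromosomes 1 to 19 with enough tags for a limma voom test, 47 differed between the brains at an adjusted p under 0.05, which is 1.28% of all tested, and 46 were higher in brain 2. Without the filter on low counts 19 differed, of which 11 were higher in brain 2. In simulated data this fit recovered fewer decreases than increases of the same size, so the count of each direction is no measure of how many strands moved that way. Strands of both-strand windows made up 66 of those tested, from 65 of the 1619 windows, and the other windows did not reach the filter on low counts. Of the 66, 4 differed, all of them minus strands with a higher value in brain 2, the direction in which changes are more readily found, and 16 had an unadjusted p under 0.05, against 10.3% of all tested. The log2 change of the 66 had a median of 0.22, against -0.00 for all strand windows. Scaled by total tags the medians were 0.01 and -0.21, and 1 of the 66 passed, as against 8 of all. In a comparison of whole cortex, more cells of a kind and more bound RNA per cell cannot be told apart. As each brain is a single animal, the p-values rest on technical spread.

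Each of the 4 was a stack. The strongest was on chromosome 5 from 58420001 to 58430000, where 147 of 148 minus tags covered one base. Its minus tags numbered 7, 14, 11 and 16 in brain 1 and 18, 24, 34 and 24 in brain 2, with every library of brain 2 above every library of brain 1, a log2 change of 2.05 ± 0.26 (SE, limma voom adjusted p = 5.26e-06). Its neighbours were plus-led, with 30 and 47 plus tags against 0 and 1 minus. On chromosome 7, from 55390001 to 55400000, 121 of 125 minus tags covered one base, beside 16 plus tags. Its minus tags numbered 10, 9, 14 and 23 in brain 1 and 16, 17, 21 and 15 in brain 2. The change was 1.35 ± 0.27 (limma voom adjusted p = 0.00385), and per unit of depth each library of brain 2 lay above each of brain 1. On chromosome 5, from 19410001 to 19420000, all 120 minus tags covered one base, and 1 of the 61 plus tags overlapped them. They numbered 9, 12, 22 and 12 in brain 1 and 10, 18, 19 and 18 in brain 2. The change was 1.25 ± 0.28 (limma voom adjusted p = 0.0117), and brain 2 was the higher in 15 of 16 pairs of libraries. Its plus strand, at 18.6 ± 4.27 CPM for brain 1 and 19.9 ± 11.7 for brain 2 (SD, n = 4), overlapped between the brains. On chromosome 1, from 160450001 to 160460000, 82 of 85 minus tags covered one base between plus-led neighbours (18 and 82 plus tags against 0 and 3 minus). The minus tags numbered 11, 7, 7 and 9 in brain 1 and 17, 15, 12 and 7 in brain 2, and per unit of depth each library of brain 2 lay above each of brain 1. The change was 1.40 ± 0.34 (limma voom adjusted p = 0.0276). The filter asked, in 4 libraries, for the CPM of 10 tags at median depth, which 4 libraries of brain 2 and 0 of brain 1 reached, so this strand was tested only through the brain where it was high, and the call supports nothing by itself. In the other 3 strands 2 or 3 libraries of brain 1 reached it, and 4 of brain 2. Brain 1 alone would not have brought these strands into the test either, so they too entered with the help of the brain where they were high.

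Many tags behind these calls lay at repeated positions. In the 4 strands between 55.3 and 77.0% of tags repeated the start and end of another tag of the same library. With such tags counted once per library, the 4 strands did not reach the filter and were not tested. Counted so, brain 1 and brain 2 held 15 and 19 tags at 58420001, 13 and 18 at 55390001, 25 and 28 at 19410001, and 21 and 17 at 160450001. Of the 35 other strands that were tested none passed in limma voom, and 5 had an unadjusted p under 0.05. Among all 2393 strand windows in that fit, 14 passed and 221 had an unadjusted p under 0.05. With so low a share over all, none among 35 says little about these strands. With all tags, the calls other than that at 58420001 were lost in limma voom without the filter on low counts (adjusted p = 0.453 for 19410001, 0.288 for 55390001 and 0.417 for 160450001), with total scaling (adjusted p = 0.127 for 19410001, 0.0586 for 55390001 and 0.119 for 160450001) and, in the same order, without library 1 of brain 1 (adjusted p = 0.107, 0.0607 and 0.216). The window at 19410001 also lost its call without library 2, 3 or 4 of brain 2 (limma voom adjusted p = 0.0636, 0.0543 and 0.0586), and that at 160450001 without library 2, 3 or 4 of brain 1 (limma voom adjusted p = 0.157, 0.0911 and 0.131).

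The balance between the strands was tested where both had 40 or more tags. None of these 12 windows changed its plus to minus ratio between the brains in the limma voom test of strand by brain (0% called, 0 with an unadjusted p under 0.05, smallest adjusted p = 0.661). With 20 or more tags on each strand, 3 of 143 windows passed and 13 had an unadjusted p under 0.05. Among these 3 was the fourth window of the run on chromosome 7, at 66530001, with 14 plus and 99 minus tags in brain 1 and 19 and 28 in brain 2 (log2 change of the ratio 2.15 ± 0.59, limma voom adjusted p = 0.0282). The shares that follow are built from the counts that chose the windows and are given as a description. The emptier strand held 31.6 ± 0.91% of tags in brain 1 and 33.5 ± 1.29% in brain 2, and the plus strand 53.6 ± 1.02 and 51.5 ± 1.76% (SD, n = 4). Of the tags of chromosomes 1 to 19, both-strand windows took 2.29 ± 0.05% in brain 1 and 2.42 ± 0.03% in brain 2.

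Tags of both-strand windows were shorter than those of other tag-rich windows. Tags of the full 30 nt made up 44.2 ± 1.68% of them, against 48.7 ± 1.71% in other windows with 20 or more tags (SD, n = 8, lower in 8 of 8 libraries, exact sign permutation p = 0.00781, adjusted p = 0.00868). Within both-strand windows the share was 40.6 ± 1.54% on the emptier strand and 46.0 ± 1.80% on the fuller, again lower in 8 of 8 with the same p. Windows with under 20 tags had 36.3 ± 1.41%. Neither the windows nor the strands compared were matched for how many tags they hold, and the part of tag number in these differences was not tested. Tags repeating the position of another tag of the same library made up 9.96 ± 2.01% of the emptier strand and 20.4 ± 3.21% of the fuller (lower in 8 of 8, exact sign permutation p = 0.00781, adjusted p = 0.00868), while the strands also differ in how many tags they hold. Repeated tags are part of the counts that name the fuller strand. The naming therefore favours this direction, and the difference is given as a description. Both-strand and other windows as a whole, at 17.0 ± 2.84 and 17.4 ± 4.13%, lay within each other's spread (exact sign permutation p = 0.555, higher in 4 of 8).

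**Figure D4:**
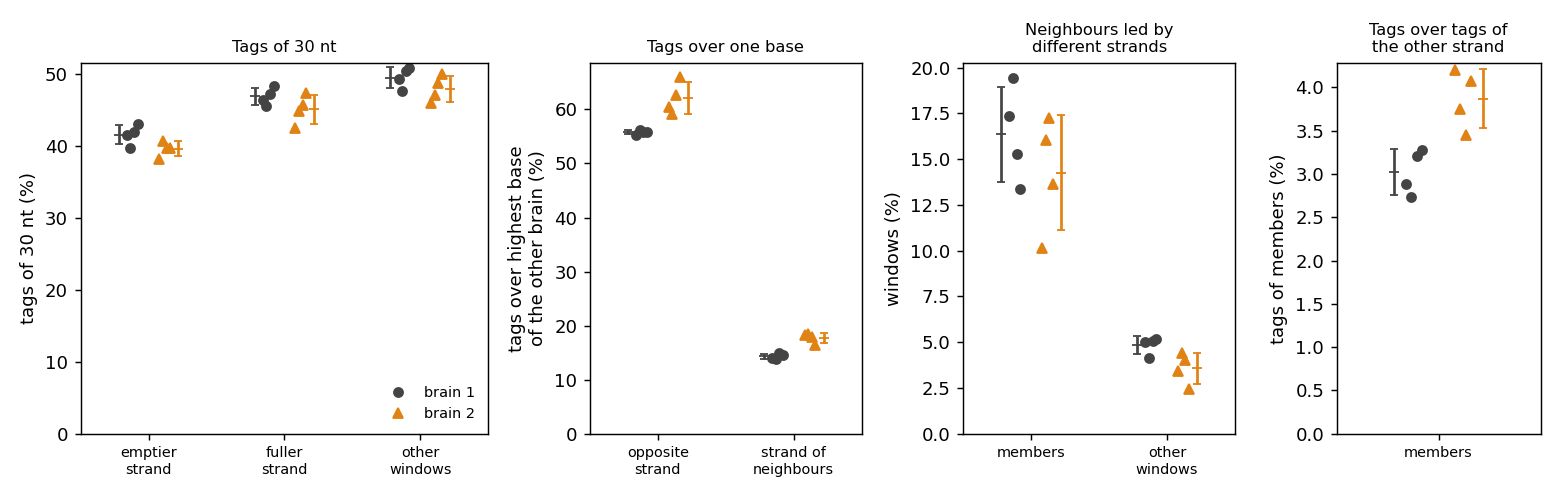
Values per library (brain 1 circles, brain 2 triangles; bars, mean and SD of 4 libraries; y axes in percent; "members" are the both-strand windows). From left: tags of 30 nt on the emptier and fuller strand of both-strand windows and in other windows; tags over the highest base of the other brain, on the strand opposite to the neighbours (55.3 to 66.0%) and on the strand of the neighbours (13.9 to 18.4%); windows whose neighbours are led by different strands; tags that overlap a tag of the other strand.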

How the data were processed

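The authors deposited a single table of mapped tags. Mapping used Bowtie (version not given) and the builds listed are mm8 and mm9, per the submitters' processing notes. The last tag of chromosome 1 ends at 197194446, beyond that chromosome's end in mm8, so positions are taken as mm9. For duplicates and reads with several matches, the handling was not stated in the sources used here. The deposited score was 0 in each row and was not used, and library codes in the tag names were matched to the sample titles. Libraries held 228424 to 545387 tags. Other deposited values, the start and end of each tag, gave midpoints, tag lengths of 27 to 30 nt and strands.

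Counts per window and strand were made here with Python 3.11.15, numpy 2.4.6 and pandas 2.3.3. Strand windows entered the limma 3.58.1 voom fit (R 4.3.3) if 4 libraries or more reached the CPM of 10 tags in a library of median depth and 15 tags were present in all, with libraries scaled by trimmed means of their log ratios (trims of 30% and 5%) and p-values adjusted by Benjamini and Hochberg over all strand windows. Fits and classes were tested on simulated data. Shares per library were compared by exact permutation. Windows named are the 10 with the most tags on the emptier strand, the 5 with the most in each class, and those passing the voom test with the same direction in all 16 pairs of libraries. Same-numbered libraries of the brains were checked for shared deviations, and grids, thresholds, ranges, scalings, filters, repeated tags and each library were varied. Windows, lists and rules were chosen with earlier results of these data known; the comparisons of stacks, of neighbours led by different strands and of windows beside others were added after the data were seen. Sequences of the windows are not analysed here.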

Additional observations from a re-analysis of the deposited data

Results flagged for a closer look

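Each value was examined for a single library standing off within its brain; this was found in 4 of 64 sets, and chance alone gives roughly 1 set in 20. Library 3 of brain 1 had 56.6% of its both-strand tags in overlapping windows, below the other libraries of that brain. Library 2 of brain 1 had 4.13% of other windows with neighbours led by different strands, also the lowest of its brain. In library 2 of brain 2 the tags before a meeting window were 59.6% plus, the lowest of its brain, and in library 4 of brain 1 those after a meeting window were 36.9% plus, likewise the lowest.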

How the results depend on the processing

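Counts of both-strand windows follow the threshold, the window size and the depth, while windows starting 5 kb later gave 1627 (907, 378 and 342). With 5 tags on each strand there were 12162 windows (7883 overlapping, 2258 meeting, 2021 diverging) and with 20 there were 143 (88, 30 and 25). Windows of 5 kb gave 440 (203, 138 and 99) and of 20 kb 5799 (4199, 837 and 763). Brain 1 alone gave 333 (184, 87 and 62) and brain 2 alone 89 (45, 22 and 22). Leaving out 1 library gave 968 to 1290 windows, with 550 to 752 overlapping, 220 to 295 meeting and 177 to 243 diverging. Full ranges gave 164 meeting and 136 diverging windows, and the 25th to 75th percentiles 518, 596 and 505. Neighbours led as the class would have it were 62.2% of 778, and 66.3% where neighbours had 20 or more tags. Tags within 50 and 200 nt of an opposite tag were 5.50 and 13.8%. Without a library, the difference between brains in repeated positions ran from -1.32 to 1.72 percentage points, against 0.58 with all, and that between both-strand and other windows from -0.566 to 0.0328. Those in the share of tags ran from 0.116 to 0.149, in plus share from -2.74 to -1.41, on the emptier strand from 1.52 to 2.42 and in opposite overlap from 0.733 to 0.985. Without library 4 of brain 2 these differences passed: share of tags 0.136, plus share -2.74, emptier strand 2.42 and opposite overlap 0.775. Each had an exact permutation adjusted p of 0.0429. All but the overlap are built from the counts that chose the windows. With libraries averaged by brain and title letter, an alternative chosen after seeing the data, the 9 paired differences were -4.48 and -5.39 (30-nt tags), -10.5 (repeated positions), 26.0 and -20.8 (plus share before and after), 11.1 (neighbours of different strands), 42.9 (highest base), 16.3 (windows beside) and 1.31 (emptier strand of other windows), at an exact permutation adjusted p of 0.139. Strands of both-strand windows that differed between brains numbered 4, and 1 with total scaling, 1 without the count filter, 0 with repeated rows counted once, where these 4 were not tested, and 1 to 4 without a library. With the replicate number as a block they numbered 5. These fits tested 66 such strands in the main, total-scaling and block settings and 3238 without the filter. They tested 35 with repeated rows counted once and 39 to 89 without a library. Among all strand windows, 47 of 3672 passed in the main fit, 8 with total scaling and 40 with the block. The filter left out, 19 of 73813 passed. With repeated rows counted once 14 of 2393 did, and without a library 18 to 43 of 2319 to 4528. Same-numbered libraries did not deviate together (correlations -0.04 to -0.00), so the numbers are not taken to pair the brains. With 20 tags on each strand 3 windows changed their balance.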

Other observations

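The X chromosome was not among the chromosomes on which the windows were chosen. By the same rule it held 132 both-strand windows among 2084 with 20 or more tags, or 6.33%, where chromosomes 1 to 19 ran from 3.35 to 5.08%. Of these, 46 overlapped, 50 met and 36 diverged. On each of chromosomes 1 to 19 the overlapping class made up 50.9% or more of the windows.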
